A study of Mus musculus with 10 samples.

Results

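The transcripts described here are 31 nuclear genes of mitochondrial dynamics, mitophagy and protein quality control, taken from a fixed list of names and sorted into 6 classes: fusion, fission, mitophagy, biogenesis, chaperones and proteases. They are 31 of the 27179 genes in the count table, and all 31 had enough counts to be tested among 15226 genes. The livers came from male C57BL/6 mice, all given a diet that produces nonalcoholic steatohepatitis (NASH) for 12 weeks and all homozygous for floxed Lpcat3 (Lpcat3f/f). The 5 LKO mice also carried Albumin-Cre, whose promoter is active in hepatocytes, and the 5 control mice were Lpcat3f/f. Lpcat3 encodes an acyltransferase that puts polyunsaturated fatty acids into membrane phospholipids. The title of the study links this remodelling to mitochondrial homeostasis, so the comparison asks whether the transcripts that shape and maintain mitochondria differed between the genotypes.

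Mitochondria join and divide continuously. Fusion joins the outer and inner membranes and lets organelles share contents, and fission cuts off pieces that can be moved or removed. Damaged pieces are marked or bound by receptors and delivered to the autophagosome, which is mitophagy. New mitochondrial mass is driven by nuclear coactivators and receptors, and inside the organelle chaperones fold imported proteins while proteases degrade damaged ones and trim regulators such as Opa1. Much of this control acts on proteins (cleavage, phosphorylation, recruitment), which RNA counts do not measure. Hepatocytes are rich in mitochondria, and their mitochondria are known to change shape and function in fatty liver disease.

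Values are CPM, counts scaled to a common library size with TMM factors, which also correct for composition. Differences are log2 fold changes, LKO minus control, from edgeR's quasi-likelihood test with Benjamini-Hochberg adjustment over all genes tested. Each library came from 1 mouse and held 26914124 to 46727182 counts, and the lowest count of a member in a library was 85 (Htra2). Lpcat3 ranged from 25.5 to 38.5 CPM in LKO livers and from 94.1 to 123.9 CPM in control livers, with no overlap. Hepatocyte markers were abundant throughout, with a summed level of 53329 to 75436 CPM in LKO livers and 61552 to 96574 CPM in control livers over 10 of 10 markers. Control 4 stood apart from its group on the main axis of variation of all genes (56.8% of the variance). It scored 30.2, among LKO scores of -8.03 to 82.3, against other controls at -52.7 to -30.1. LKO 3 had the highest score of all.

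None of the 31 members passed an adjusted p of 0.05 in edgeR, against 10 of 15226 genes (0.0657%). At an unadjusted p of 0.05, 3 of 31 members (9.68%) passed, against 22.3% of all genes. The fusion genes Mfn1 and Opa1 were the 2 lower ones (6.45% of members, 9.50% of all genes), and the protease Lonp1 was the 1 higher (3.23% of members, 12.8% of all genes). DESeq2 and limma voom each called 1 member, Mfn1 (3.23% of members), against 7.95% of all genes in DESeq2 and 16.2% in voom. Only Mfn1 had no overlap between the groups (3.23% of members, against 3.95% of all genes). No difference between these shares was tested, and 1 gene is 3.23% of 31 members. The 0 members called in edgeR and the 1 without overlap were therefore near the shares over all genes. Each share was numerically below the share over all genes. The same held at an unadjusted p of 0.05 with no filter on low counts (1 member, against 15.9% of all genes), in voom (6 members, 19.4%, against 33.2%) and without LKO 3 (3 members, 9.68%, against 17.2%). It did not hold with libraries scaled to total counts, where 9 members (29.0%) passed, all higher, against 26.6% of all genes in either direction and 24.7% higher. These 9 were Fis1, Fundc1, Map1lc3b, Hspd1, Hspe1, Hspa9, Trap1, Lonp1 and Spg7.

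Differences were small in every class. The size of the log2 fold change ran from 0.01 to 0.44 among members and exceeded 0.5 for 0 of 31, whereas 12.2% of the 10726 genes at least as abundant as the least abundant member exceeded 0.5. The median size was 0.13 among members and 0.15 among those 10726 genes. All 95% intervals of members lay between -1.034 and 0.573. In direction, 12 members were higher and 19 lower in LKO livers, with a median of -0.10 beside -0.004 over all genes. These directions are relative to TMM scaling. With libraries scaled to total counts the median of all genes moved to 0.235 and that of members to 0.14, and 27 members were then positive and 4 negative.

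**Figure D1:**
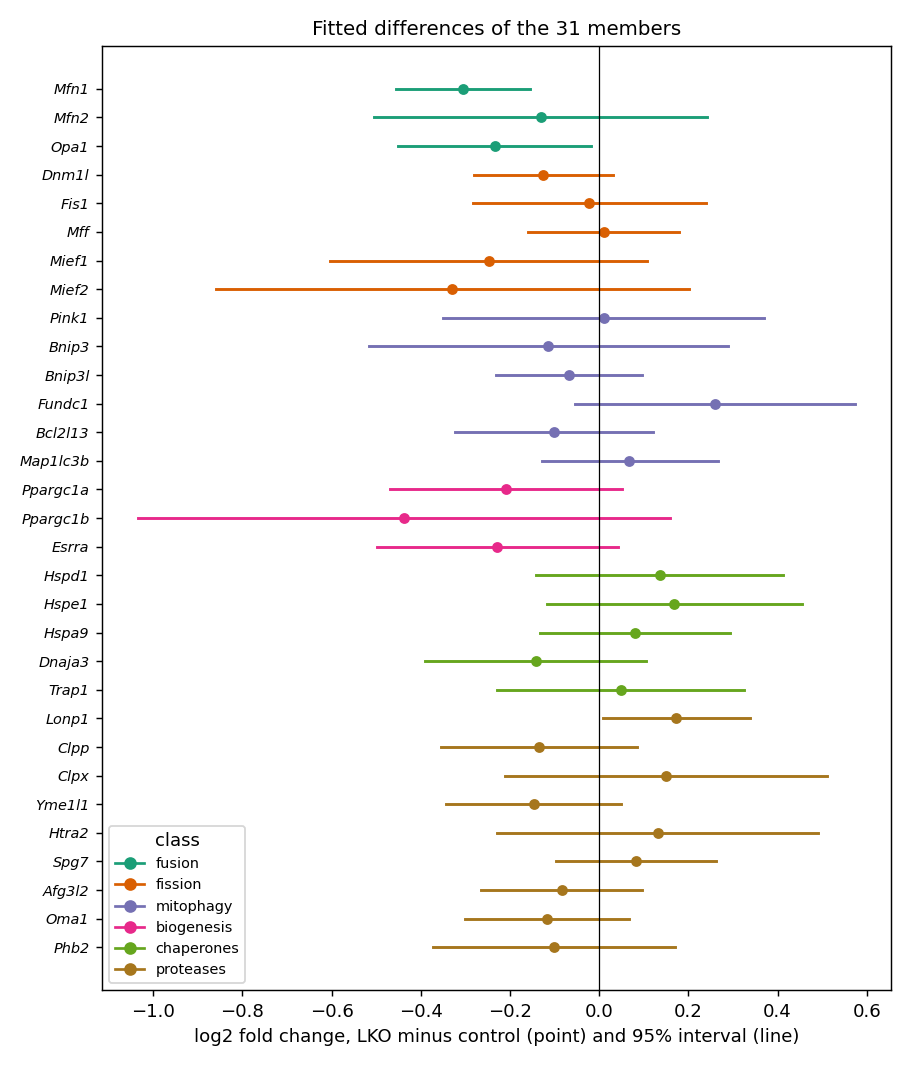
Fitted log2 fold changes of the 31 members, LKO minus control, on the horizontal axis, with genes down the page coloured by class and lines for 95% intervals. The intervals of Mfn1 and Opa1 lie below 0 and that of Lonp1 above 0, while the other 28 cross it.

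Fusion was the class with the lowest values relative to controls, together with biogenesis. All 3 fusion genes had negative differences, with a class median of -0.23 that became 0.000 with total-count scaling. Mfn1, a GTPase of the outer membrane that tethers and fuses mitochondria, measured 38.9, 39.4, 36.7, 40.2 and 40.2 CPM in LKO livers, against 46.9, 43.2, 49.6, 49.3 and 52.3 CPM in control livers. Every LKO library was below every control library, and LKO values were close to each other. Mfn1 averaged 39.1 ± 1.42 CPM in LKO livers and 48.3 ± 3.40 CPM in control livers (SD, n = 5 each), a change of -19.0%. The log2 fold change was -0.30 ± 0.07 (SE; 95% interval -0.455 to -0.154), with an unadjusted p of 0.000928 and an adjusted p of 0.0913 in edgeR. Leaving out control 4 gave -0.30 with an edgeR adjusted p of 0.0256, and leaving out each library in turn gave adjusted p from 0.0256 to 0.244. In that fit without control 4, 15.0% of all genes were called and Mfn1 was the 1 member among them. DESeq2 gave Mfn1 an adjusted p of 0.00155. With total-count scaling the log2 fold change was -0.07, with an unadjusted p of 0.566 in edgeR, beside a median of 0.235 over all genes. A neighbouring gene, Gnb4, overlaps 1.28% of the Mfn1 span and averaged 2.56 CPM.

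Opa1, the inner-membrane GTPase that completes fusion and holds cristae together, measured 118, 111, 84.8, 109 and 103 CPM in LKO livers, against 124, 127, 130.4, 108 and 128 CPM in control livers. Every LKO library was below every control other than control 4, whose 108 CPM lay among the LKO values. The averages were 105 ± 12.4 CPM in LKO livers and 123 ± 9.07 CPM in control livers (SD, n = 5 each). The log2 fold change was -0.23 ± 0.10 (SE), with an unadjusted p of 0.0359 and an adjusted p of 0.198 in edgeR, and it was 0.000 with total-count scaling. Without control 4 it was -0.28 with an adjusted p of 0.0749 in edgeR. Leaving out each library in turn gave -0.28 to -0.17, with adjusted p from 0.0749 to 0.371. Mfn2, the second outer-membrane mitofusin, which also tethers mitochondria to the endoplasmic reticulum, measured 114, 106, 57.8, 93.6 and 88.1 CPM in LKO livers, against 117, 113, 93.0, 81.2 and 99.5 CPM in control livers. LKO 3 was far below the other libraries and the groups overlapped. Its log2 fold change was -0.13 with a 95% interval of -0.505 to 0.242, and it was -0.008 without LKO 3, -0.20 without control 4 and 0.10 with total-count scaling. The ratio of Mfn2 to Mfn1 counts within a library was 1.57 to 2.94 in LKO livers and 1.65 to 2.61 in control livers. An exact two-sided permutation test over all assignments of the 10 libraries to groups of 5 gave an adjusted p of 0.821 for this ratio.

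**Figure D2:**
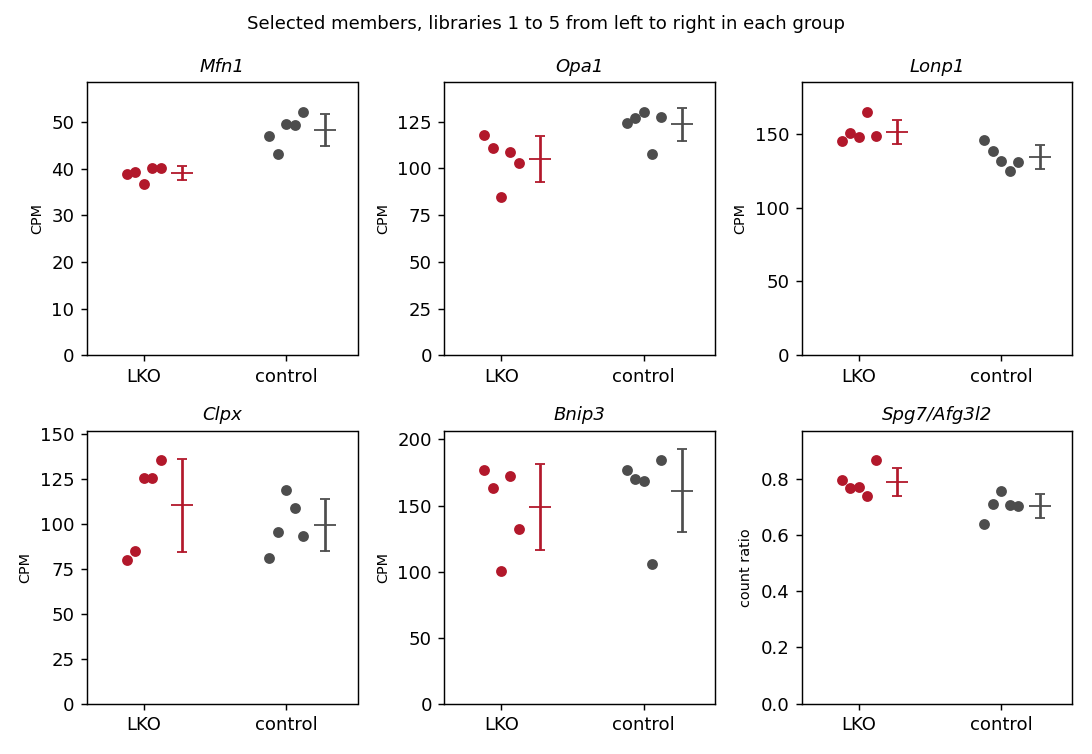
CPM of 5 members and the Spg7 to Afg3l2 count ratio on the vertical axes, LKO left of control in each panel, with points for libraries 1 to 5 from left to right and bars for mean ± SD. The Mfn1 points of the groups do not overlap, Opa1 and Lonp1 overlap at 1 or more libraries, and Clpx and Bnip3 spread widely within both groups.

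None of the fission genes had an unadjusted p under 0.05 in edgeR. Of 5 genes, 1 was higher and 4 were lower, with a class median of -0.12 (0.12 with total-count scaling). Dnm1l, the dynamin-related GTPase that constricts the organelle, had the smallest p of the class. It measured 56.6, 52.0, 58.9, 59.3 and 59.8 CPM in LKO livers, against 59.0, 59.8, 67.4, 59.9 and 66.3 CPM in control livers. The groups overlapped, with 2 controls above all other libraries, and the edgeR log2 fold change was -0.12 with an unadjusted p of 0.107 (0.12 with total-count scaling). The outer-membrane adaptors Mff and Fis1, which recruit Dnm1l or act in its pathway, gave log2 fold changes of 0.01 and -0.02. The interval of Mff was narrow, from -0.160 to 0.179. Mff ranged from 16.4 to 18.9 CPM in LKO livers and from 15.9 to 19.0 CPM in control livers. Fis1 ranged from 17.3 to 24.0 CPM in LKO livers, with LKO 3 lowest, and from 18.6 to 26.4 CPM in control livers, with control 4 lowest.

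The adaptors Mief1 and Mief2, which also bring Dnm1l to the outer membrane, were more variable. Mief1 measured 28.5, 25.7, 17.6, 22.0 and 21.1 CPM in LKO livers, against 34.4, 30.6, 26.9, 19.6 and 24.99 CPM in control livers. Mief2 measured 12.9, 12.0, 5.72, 9.49 and 10.3 CPM in LKO livers, against 18.7, 13.3, 11.3, 8.06 and 12.1 CPM in control livers. For both genes the lowest LKO library was LKO 3 and the lowest control library was control 4. Their log2 fold changes were -0.25 and -0.33, with edgeR unadjusted p of 0.153 and 0.200 and a 95% interval for Mief2 of -0.860 to 0.202. Without LKO 3 they were -0.17 and -0.18, without control 1 -0.15 and -0.15, without control 4 -0.35 and -0.46, and with total-count scaling -0.001 and -0.08. Without control 4 the unadjusted p of Mief1 was 0.0360 in edgeR, 1 of 5 members (16.1%) under 0.05 there, against 33.1% of all genes. The other 4 were Mfn1, Opa1, Dnaja3 and Yme1l1, and all 5 were lower. The count ratios Mief2 to Mief1 and Mff to Fis1 had log2 differences of -0.09 and 0.03, LKO minus control, with adjusted p of 0.821 and 0.849 in the exact permutation test.

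Mitophagy genes were split, with 3 higher and 3 lower of 6, a class median of -0.03 (0.21 with total-count scaling) and 0 under an unadjusted p of 0.05 in edgeR. Pink1 encodes the kinase that gathers on depolarised mitochondria and starts ubiquitin-dependent mitophagy. It measured 150.1, 156, 87.6, 151 and 139 CPM in LKO livers, against 144, 166, 129.6, 106 and 133 CPM in control livers. The group averages were nearly equal, at 137 ± 28.2 CPM in LKO livers and 136 ± 21.7 CPM in control livers (SD, n = 5 each), although LKO 3 lay well under the other LKO libraries. The receptors Bnip3, Bnip3l, Fundc1 and Bcl2l13 sit in the outer membrane and bind autophagosome proteins directly. Bnip3 measured 177, 163, 100.2, 172 and 132 CPM in LKO livers, against 177, 169.96, 168, 106 and 184 CPM in control livers. One library in each group, LKO 3 and control 4, was near 100 CPM or just above it. LKO 5 was at 132 CPM, and the rest of both groups ran from 163 to 184 CPM. The log2 fold change of Bnip3 was -0.11, with a 95% interval of -0.516 to 0.289. It was -0.006 without LKO 3, -0.23 without control 4 and 0.13 with total-count scaling.

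Fundc1, a receptor of hypoxia-induced mitophagy, had the smallest p of the class, and its difference was positive. It measured 4.18, 4.83, 5.43, 5.42 and 5.18 CPM in LKO livers, against 4.42, 4.71, 4.72, 4.03 and 3.09 CPM in control livers. The LKO libraries other than LKO 1 were above every control library, and LKO 1 was among the controls. The edgeR log2 fold change was 0.26 with a 95% interval of -0.054 to 0.573 and an unadjusted p of 0.0963. Bnip3l, the close relative of Bnip3, ranged from 79.8 to 92.4 CPM in LKO livers and from 80.1 to 95.3 CPM in control livers. Bcl2l13 ranged from 37.2 to 52.5 CPM in LKO livers and from 41.5 to 54.5 CPM in control livers. Map1lc3b, the protein that is lipidated on the growing autophagosome, ranged from 82.8 to 93.5 CPM in LKO livers and from 71.5 to 97.1 CPM in control livers. These 3 genes had log2 fold changes of -0.07, -0.10 and 0.07, and their groups overlapped. One annotated pseudogene of Bnip3l is in the table at 6.81 CPM, so the counting may have split reads between them. The ratio of Bnip3 to Bnip3l counts was 1.24 to 2.04 in LKO livers and 1.32 to 1.98 in control livers.

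All 3 biogenesis genes had negative differences, with a class median of -0.23 that was 0.002 with total-count scaling, and 0 had an unadjusted p under 0.05 in edgeR. Esrra encodes a nuclear receptor that switches on oxidative genes. It measured 14.5, 16.8, 10.5, 13.3 and 12.2 CPM in LKO livers, against 17.9, 16.5, 15.5, 15.0 and 14.0 CPM in control livers. LKO 3, LKO 4 and LKO 5 were below every control, and LKO 1 and LKO 2 lay among them. Its coactivator Ppargc1a, which drives mitochondrial biogenesis and is induced by fasting in liver, measured 17.3, 15.6, 20.9, 15.8 and 15.4 CPM in LKO livers, against 17.7, 17.1, 24.1, 18.6 and 20.6 CPM in control livers. The related coactivator Ppargc1b measured 21.9, 19.3, 9.71, 11.6 and 10.8 CPM in LKO livers, against 27.9, 19.7, 23.9, 14.6 and 13.2 CPM in control livers. The log2 fold changes were -0.23 for Esrra, -0.21 for Ppargc1a and -0.44 for Ppargc1b, with edgeR unadjusted p of 0.0901, 0.107 and 0.135. Ppargc1b had the largest difference of the 31 members and also the widest interval, from -1.034 to 0.159, and it was -0.20 with total-count scaling. Without LKO 3, Ppargc1a was -0.30 with an unadjusted p of 0.0190 in edgeR. The ratio of Ppargc1a to Ppargc1b counts was 0.79 to 2.15 in LKO livers and 0.634 to 1.56 in control livers, with an adjusted p of 0.821 in the exact permutation test.

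Within the LKO group, Ppargc1b also differed by the code in the sample titles, whose meaning the labels do not give, a pattern noticed after its values were seen. The code A54, the only one found in both groups, covered LKO 1, LKO 2 and control 1, and these had 21.9, 19.3 and 27.9 CPM of Ppargc1b. The LKO libraries with the code A67 had 9.71, 11.6 and 10.8 CPM, and the controls with the code A55 had 13.2 to 23.9 CPM. Within A54 the log2 differences, LKO minus control, were -0.44 for Ppargc1b, -0.26 for Mfn1, -0.12 for Opa1 and 0.02 for Lonp1, from 2 LKO livers and 1 control liver. Beyond these libraries, code and genotype cannot be told apart.

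**Figure D3:**
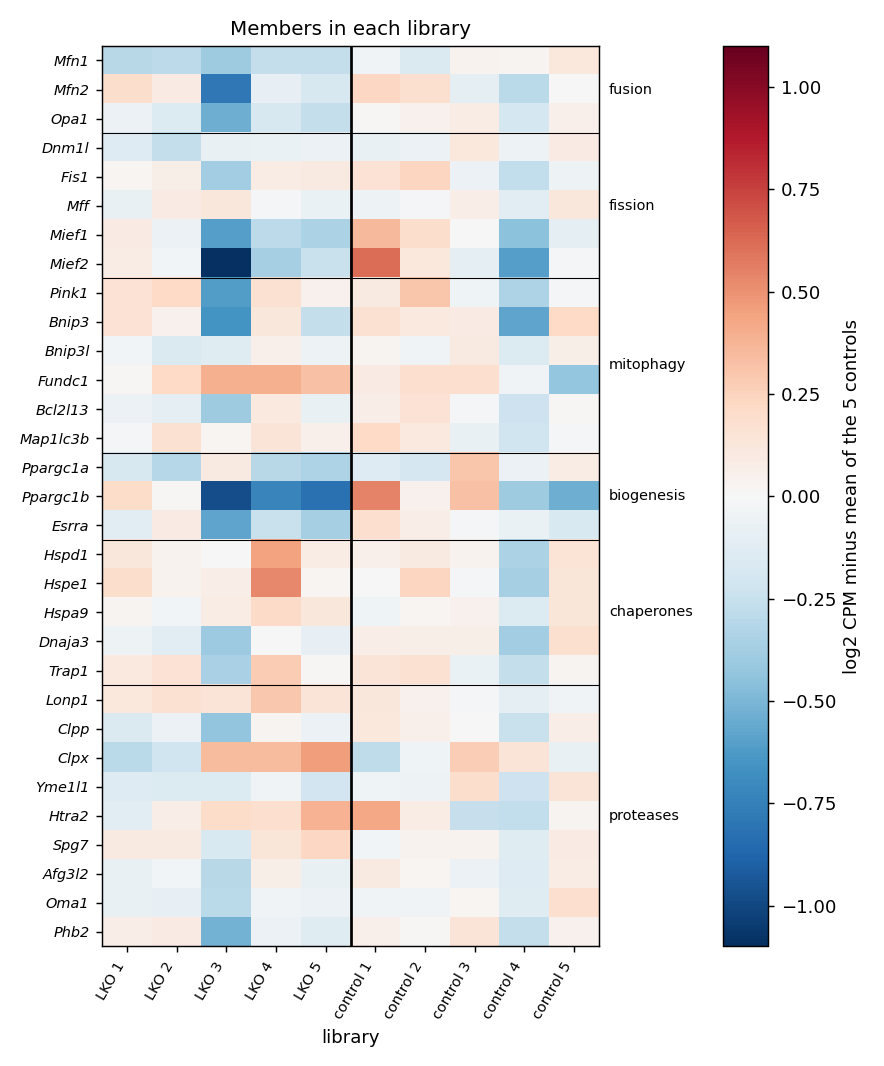
Log2 CPM minus the mean of the 5 controls (colour, red higher and blue lower) for the 31 members down the page by class, with the 5 LKO libraries left of the 5 control libraries. LKO 3 and control 4 are the bluest columns of their groups, each lowest in its group for 19 and 24 of 31 members, and the Mfn1 row is the one whose LKO cells all lie below the control cells.

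The 3 most abundant members per length were chaperones, and 4 of 5 chaperones had small positive differences. Per kilobase of exon, Hspa9 averaged 168 CPM, Hspd1 143 CPM and Hspe1 124 CPM over the 10 libraries, while Fundc1 at 1.997 CPM and Htra2 at 2.05 CPM were the lowest members. Of 5 chaperone genes, 4 had positive differences and 1 a negative difference, with a class median of 0.08 (0.33 with total-count scaling), and 0 had an unadjusted p under 0.05 in edgeR. With total-count scaling 4 of 5 did, with unadjusted p of 0.00212 for Hspd1, 0.00233 for Hspe1, 0.00749 for Trap1 and 0.0165 for Hspa9, and 0 passed the adjusted threshold. Hspd1 and Hspe1 encode the barrel and the lid of the matrix chaperonin, which encloses unfolded proteins. The genes lie head to head on chromosome 1, 216 bases between the Hspe1 start and 1 of 2 annotated Hspd1 starts. The other Hspd1 start lies 95 bases past the Hspe1 start, so that form overlaps Hspe1, and its window shares 4 bases with that of Hspe1. The window of Hspe1, chr1:55087898-55088197 on the plus strand of GRCm38.p6 from RefSeq, is printed because it covers the region between the separate starts. Its capitals mark a heat shock motif, GAANNTTC, that ends 77 bases before the Hspe1 start, and a motif of oestrogen-related receptors (ERR, the family of Esrra), AAGGTCA, 42 bases before it.
Hspe1 window: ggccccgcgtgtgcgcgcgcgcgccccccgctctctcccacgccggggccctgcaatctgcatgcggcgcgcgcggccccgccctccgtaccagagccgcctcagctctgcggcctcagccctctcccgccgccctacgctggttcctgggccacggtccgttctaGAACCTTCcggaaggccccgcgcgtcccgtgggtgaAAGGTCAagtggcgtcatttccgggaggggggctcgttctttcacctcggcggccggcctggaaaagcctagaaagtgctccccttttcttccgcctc

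The matching Hspd1 window, chr1:55087883-55088182 on the minus strand, shares 285 bases with it. Both marked motifs lie in the shared bases, so Hspd1 and Hspe1 hold the same site of each. On both strands, GAANNTTC was found in the windows of 2 of the 26 members with a window in the RefSeq table, Hspd1 and Hspe1, in 6.25% of the members' 32 windows and 7.86% of all 32851 windows. AAGGTCA was found for 3 members, Hspd1, Hspe1 and Trap1, in 9.38% of the members' windows and 4.72% of all windows. The cAMP core TGACG was present in 53.1% of the 32 windows of members and 20.8% of all windows, the E-box CACGTG in 12.5% and 7.15%, and the hypoxia core ACGTG, which the E-box contains, in 34.4% and 19.6%. A motif of the respiratory factor NRF1 was present in 25% of member windows and 4.6% of all windows. These are matches of letters and not sites shown to be bound. The windows of all genes were not matched to those of members by expression or base content, and no difference between the shares was tested.

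The 2 chaperonin genes kept nearly the same proportion in every liver. Hspd1 measured 391, 367, 356, 488 and 379 CPM in LKO livers, against 372, 385, 369, 281 and 397 CPM in control livers. Hspe1 measured 103, 91.8, 94.3, 129 and 90.7 CPM in LKO livers, against 89.2, 106, 88.9, 69.7 and 98.5 CPM in control livers. LKO 4 was the highest and control 4 the lowest library for both genes, and the other libraries of the groups overlapped. Their count ratio stayed between 3.78 and 4.18 in LKO livers and between 3.64 and 4.17 in control livers, with a log2 difference of -0.03 and an adjusted p of 0.821 in the exact permutation test. The edgeR log2 fold changes were 0.14 for Hspd1 and 0.17 for Hspe1, with unadjusted p of 0.305 and 0.220, without LKO 4 they were 0.04 and 0.06, and without control 4 they were 0.06 and 0.09. RefSeq lists 5 pseudogenes of Hspd1 and 6 of Hspe1, with 0 of them in the count table, so reads shared with them could be counted in the genes or dropped.

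The other chaperones act on import and folding in the matrix. Hspa9, the motor that pulls proteins through the inner membrane, ranged from 486 to 574 CPM in LKO livers and from 447 to 545 CPM in control livers. Trap1, a matrix member of the Hsp90 family, ranged from 97.0 to 151 CPM in LKO livers and from 103 to 139 CPM in control livers. Their log2 fold changes were 0.08 and 0.05, within the spread between mice. Dnaja3, the co-chaperone that stimulates Hspa9, was the 1 gene with a negative difference (0.10 with total-count scaling). It measured 76.7, 73.0, 60.3, 79.8 and 74.8 CPM in LKO livers, against 84.1, 83.3, 83.5, 61.2 and 90.3 CPM in control livers. All LKO libraries were below 4 of the controls, and control 4 was next to LKO 3. The log2 fold change was -0.14 with an unadjusted p of 0.235 in edgeR, and without control 4 it was -0.23 with an unadjusted p of 0.0276. Leaving out each library in turn gave edgeR adjusted p from 0.106 to 0.705.

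Among 9 proteases and scaffolds, 4 had positive and 5 negative differences, with a class median of -0.08 (0.15 with total-count scaling). Lonp1, the matrix protease that degrades oxidised and misfolded proteins, measured 145, 150.2, 148, 165 and 148 CPM in LKO livers, against 146, 138, 132, 125 and 131 CPM in control livers. The LKO libraries other than LKO 1 were above every control, and LKO 1 was just under control 1. It averaged 151 ± 7.89 CPM in LKO livers and 134 ± 8.10 CPM in control livers (SD, n = 5 each). The log2 fold change was 0.17 ± 0.08 (SE; 95% interval 0.008 to 0.338), with an unadjusted p of 0.0413 and an adjusted p of 0.208 in edgeR. Leaving out each library in turn gave 0.135 to 0.203, with edgeR adjusted p from 0.195 to 0.380. The lowest value came without LKO 4, with an unadjusted p of 0.115 in edgeR. Total-count scaling gave 0.416 with an unadjusted p of 0.00146 in edgeR. The other matrix protease pairs the peptidase Clpp with the unfoldase Clpx. Clpx measured 80.2, 84.8, 126, 126 and 136 CPM in LKO livers, against 81.4, 95.4, 119, 109 and 93.3 CPM in control livers. The 3 libraries with the title code A54 were the lowest of the 10, a pattern noticed after its values were seen, and the edgeR log2 fold change was 0.15 with an unadjusted p of 0.380. Clpp ranged from 16.3 to 22.4 CPM in LKO livers and from 18.6 to 23.8 CPM in control livers, with a log2 fold change of -0.13 (0.11 with total-count scaling). The ratio of Clpx to Clpp counts was 4.03 to 7.71 in LKO livers and 3.41 to 5.85 in control livers, with an adjusted p of 0.821 in the exact permutation test.

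The inner-membrane proteases process Opa1 and clear unassembled subunits. Yme1l1, whose active site faces the intermembrane space, measured 103, 102, 102, 111 and 98.5 CPM in LKO livers, against 109.97, 109, 130.2, 97.2 and 125 CPM in control livers. Control 3 and control 5 were above all other libraries, and the edgeR log2 fold change was -0.15 with an unadjusted p of 0.129 (0.10 with total-count scaling). Oma1, the stress-activated protease that cleaves Opa1, ranged from 11.8 to 14.0 CPM in LKO livers and from 13.2 to 16.4 CPM in control livers. The ratio of Yme1l1 to Oma1 counts was 7.12 to 8.69 in LKO livers and 7.38 to 8.86 in control livers, with an adjusted p of 0.849 in the exact permutation test.

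Spg7 and Afg3l2 encode the subunits of the matrix-facing inner-membrane protease. Spg7 measured 40.4, 40.4, 33.5, 41.3 and 43.9 CPM in LKO livers, against 36.7, 38.6, 38.6, 34.3 and 39.98 CPM in control livers. Afg3l2 measured 50.7, 52.6, 43.5, 56.0 and 50.7 CPM in LKO livers, against 57.5, 54.4, 51.2, 48.7 and 56.9 CPM in control livers. With TMM scaling neither differed beyond its spread, with log2 fold changes of 0.08 and -0.08 on opposite sides of 0. With total-count scaling both were positive, 0.32 and 0.15, with edgeR unadjusted p of 0.00796 and 0.114. Their count ratio was 0.796, 0.768, 0.772, 0.737 and 0.866 in LKO livers, against 0.639, 0.71, 0.755, 0.705 and 0.703 in control livers. One LKO library, LKO 4, was below the highest control, and the other 4 were above all controls. The log2 difference was 0.17, with a p of 0.0159 in the exact two-sided permutation test and an adjusted p of 0.143 over the 9 ratios computed, where the smallest possible p is 0.00794. None of the 9 ratios passed, with adjusted p from 0.143 to 0.849.

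Phb2, a prohibitin that forms the ring-shaped scaffold of the inner membrane and is also an inner-membrane mitophagy receptor, measured 155, 156, 103, 141 and 134 CPM in LKO livers, against 153, 148, 162, 123 and 152 CPM in control livers. LKO 3 and control 4 were the lowest of their groups and the rest overlapped, with a log2 fold change of -0.10. It was -0.02 without LKO 3, -0.16 without control 4 and 0.13 with total-count scaling. Htra2, a serine protease of the intermembrane space, ranged from 3.14 to 4.48 CPM in LKO livers and from 2.84 to 4.61 CPM in control livers. Its span overlaps Loxl3 over 39.4% of its length, and no source used here says whether the counting used strand, so its level is uncertain.

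Averaged by class, the groups overlapped in all 6 classes. Relative to the control mean, the mean log2 CPM of fusion genes was -0.06, -0.12, -0.57, -0.18 and -0.24 in LKO livers, against 0.07, 0.02, 0.01, -0.15 and 0.06 in control livers. For biogenesis it was -0.03, -0.07, -0.48, -0.42 and -0.51 in LKO livers, against 0.20, -0.02, 0.21, -0.17 and -0.21 in control livers. For chaperones it was 0.08, 0.01, -0.12, 0.29 and 0.03 in LKO livers, against 0.04, 0.12, 0.01, -0.30 and 0.13 in control livers. Fission, mitophagy and proteases averaged -0.14 ± 0.16, 0.01 ± 0.15 and -0.01 ± 0.10 in LKO livers, against control SDs of 0.19, 0.16 and 0.09 around 0 (n = 5 each). In the fusion class only LKO 1 and LKO 2 lay above control 4, and for biogenesis the A54 and A55 libraries of both groups ran together.

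**Figure D4:**
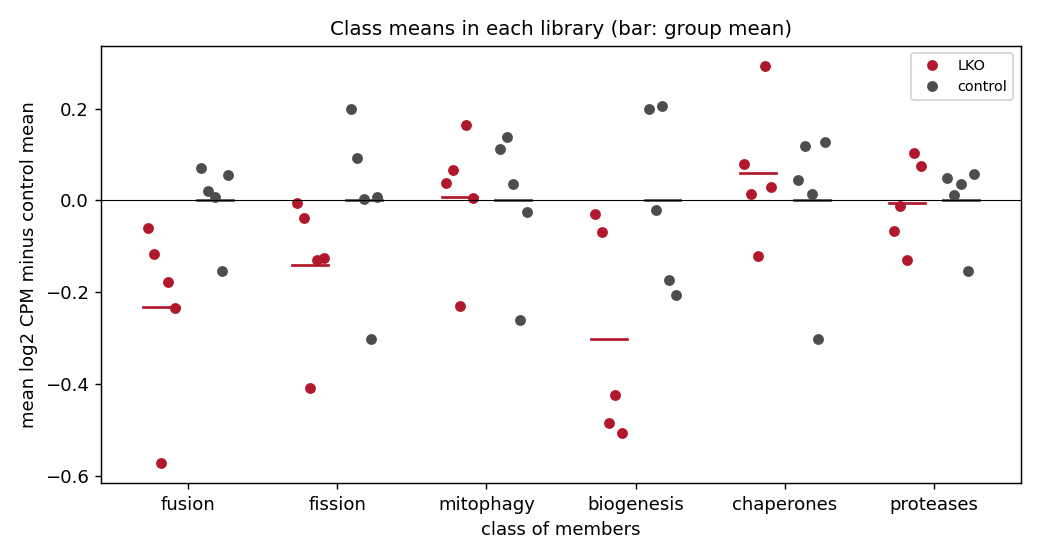
Mean log2 CPM of each class minus the control mean (vertical axis) in each library, LKO left of control within a class, with short bars for group means. The LKO means of fusion and biogenesis lie at -0.23 and -0.30, the other classes lie within 0.15 of 0, and the points of the groups overlap in every class.

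LKO 3 and control 4 held most of the low values. LKO 3 was the lowest LKO library for 19 of 31 members, and control 4 was the lowest control library for 24 of 31. The same libraries had the lowest hepatocyte marker sums of their groups, 53329 CPM in LKO 3 and 61552 CPM in control 4. They also had the highest sums of recruited macrophage markers, 843 CPM in LKO 3 and 509.0 CPM in control 4, with 224 to 843 CPM in LKO livers and 84.6 to 509.0 CPM in control livers over 9 of 9 markers. Sums over 6 of 6 cholangiocyte markers were 28.2 to 367 CPM in LKO livers and 23.3 to 158 CPM in control livers. Spp1 is in both this list and the recruited macrophage list, so it counts in both. Stellate cell markers (9 of 9) summed to 369 to 882 CPM in LKO livers and 253 to 634 CPM in control livers. Cell cycle genes (7 of 7) summed to 35.5 to 157 CPM in LKO livers and 10.5 to 60.5 CPM in control livers. In the fit, 9 of 10 hepatocyte markers were lower in LKO livers (median log2 fold change -0.42). Markers of recruited macrophages (9 of 9, median 1.32), stellate cells (9 of 9, 0.97), cholangiocytes (6 of 6, 1.62) and cell cycle genes (7 of 7, 1.61) were higher. Higher too were most markers of Kupffer cells (7 of 9, 0.62), endothelial cells (7 of 7, 0.34), T, B and NK cells (7 of 9, 0.64) and neutrophils (3 of the 3 tested, 1.89). None of these markers was at 0 in all libraries, and their part in the members' values was not tested. In whole liver, fewer cells of a type and less RNA per cell cannot be told apart. The 13 protein genes of the mitochondrial genome took 7.03% to 8.85% of counts in LKO livers and 7.96% to 9.66% in control livers. With TMM scaling their sum was 57573 to 90292 CPM in LKO livers and 74246 to 112960 CPM in control livers. All 13 were then lower in LKO livers (median -0.45 on the log2 scale). In edgeR 7 of them (53.8%) had an unadjusted p under 0.05, against 9.50% of all genes in the lower direction. These values are relative to TMM scaling. The groups overlapped both in the summed CPM and in the share of counts.

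Other genes of the same pathways gave a similar picture. Of 107 genes in 5 wider lists, 104 were tested and 0 passed the adjusted threshold in edgeR, against 0.0657% of all genes. In edgeR 13 (12.5%) had an unadjusted p under 0.05, 3 higher and 10 lower. Among all genes 22.3% did, 12.8% higher and 9.50% lower. Relative to TMM scaling, 23 were higher and 81 lower, with a median of -0.11. Among all genes 7538 were higher and 7688 lower, with a median of -0.004. Directions in these lists were not counted with total-count scaling. The median was -0.10 for 23 genes of fusion, fission and cristae, -0.16 for 31 of mitophagy and autophagy, -0.12 for 16 of biogenesis, -0.10 for 20 of import and folding, and 0.01 for 14 proteases and scaffolds. The list with the most genes under an unadjusted p of 0.05 was mitophagy and autophagy (6 of 31, 19.4%), which is below the 22.3% of all genes. Without control 4, 8 of the 104 were called (7.69%), which is below the 15.0% of all genes called in that fit.

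The groups did not overlap for 3 of the 104 wider genes (2.88%, against 3.95% of all genes): Sqstm1, Sirt1 and Prkaa2. Sqstm1 encodes p62, the receptor that links ubiquitinated cargo to the autophagosome and is itself a target of the antioxidant factor NRF2. It measured 276, 315, 425, 380.5 and 391 CPM in LKO livers, against 251.8, 262, 246, 262 and 229 CPM in control livers. Every LKO library was above every control, and the A54 livers of the LKO group were the lowest of that group. The log2 fold change was 0.52 ± 0.12 (SE), with an unadjusted p of 0.00146 and an adjusted p of 0.0977 in edgeR. Without control 4 the edgeR adjusted p was 0.0269, without LKO 1 it was 0.0477, in DESeq2 it was 0.00374 and in voom it was 0.0184. With the title code in the model the log2 fold change was 0.23. The genotype term of that fit rests on the A54 livers, 2 LKO and 1 control.

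Sirt1 and Prkaa2, both regulators of Ppargc1a, were named for having the smallest p of the wider biogenesis list. Their lower values in each LKO liver than in any control are therefore no independent support. They were the 2 genes under an unadjusted p of 0.05 in edgeR among the 16 tested in that list (12.5%, against 22.3% of all genes). Sirt1, the deacetylase that activates Ppargc1a, measured 13.9, 13.2, 12.7, 14.8 and 12.6 CPM in LKO livers, against 19.1, 16.4, 17.3, 16.1 and 15.9 CPM in control livers. Its log2 fold change was -0.33 with an unadjusted p of 0.00175 and an adjusted p of 0.0999 in edgeR. Without control 4, where edgeR called 15.0% of all genes, the adjusted p was 0.0259. It was 0.00731 in DESeq2 and 0.0154 in voom. Prkaa2, a catalytic subunit of the energy sensor AMPK, measured 129.6, 125, 94.6, 109.8 and 116 CPM in LKO livers, against 154, 134, 149, 136 and 132 CPM in control livers. Its log2 fold change was -0.30 with an adjusted p of 0.141 in edgeR, 0.0368 in DESeq2 and 0.0481 in voom. With total-count scaling the values of Sirt1 and Prkaa2 were -0.09 and -0.06.

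The inner-membrane fission protein Mtfp1 averaged 8.27 ± 1.33 CPM in LKO livers and 12.2 ± 2.30 CPM in control livers (SD, n = 5 each). Its log2 fold change was -0.56 with an unadjusted p of 0.00455 and an adjusted p of 0.116 in edgeR, and without control 4 it was -0.68 with an adjusted p of 0.0101. Its adjusted p was 0.0247 in DESeq2 and 0.0102 in voom, and its log2 fold change with total-count scaling was -0.31. Control 4, at 8.16 CPM, was the 1 control within the LKO range. Other autophagy and import genes with the smallest p had lower values in LKO livers. These were the autophagy-initiating kinase Ulk1 (-0.41), the lipid kinase subunit Atg14 (-0.31) and the intermembrane chaperones Timm9 (-0.37) and Timm10 (-0.27). The outer-membrane assembly protein Samm50 (0.27) and the Hspa9 exchange factor Grpel2 (0.34) had higher values. With total-count scaling Ulk1 was -0.17, Atg14 -0.06, Timm9 -0.14, Timm10 -0.02, Samm50 0.49 and Grpel2 0.60. None of these 6 passed the adjusted threshold in edgeR with all libraries. Without control 4, where edgeR called 15.0% of all genes, it gave adjusted p of 0.0323 for Atg14, 0.0467 for Timm9 and 0.0461 for Timm10. DESeq2 gave 0.0441 for Ulk1, and voom gave 0.0470 for Ulk1, 0.0399 for Atg14, 0.0345 for Timm9 and 0.0464 for Samm50. The other genes named by the same rule passed in none of these fits. These were the transport adaptor Rhot2 (-0.19, 0.05 with total-count scaling), the deacetylase Sirt3 (-0.35), and the protease-list genes Lactb (-0.30), Phb1 (0.21) and Lonp2 (-0.24, -0.003 with total-count scaling).

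**Figure D5:**
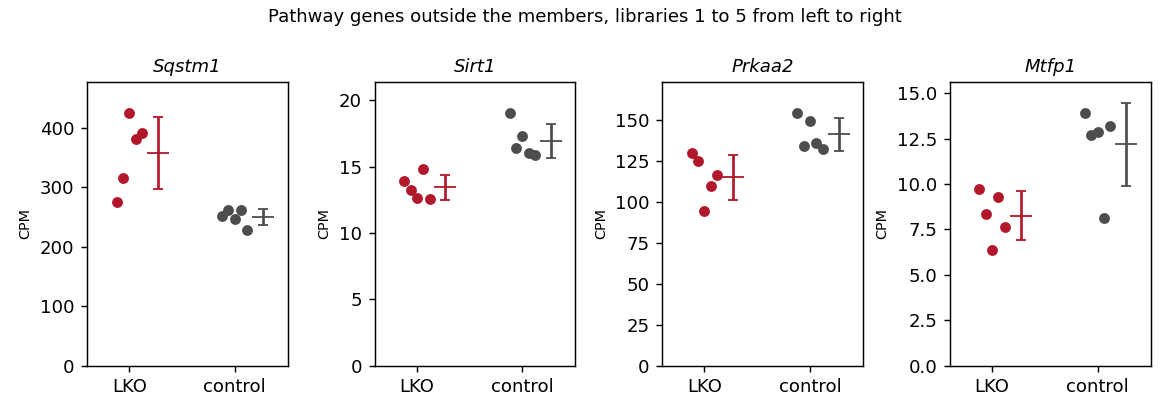
CPM of 4 pathway genes outside the 31 members (vertical axes), LKO left of control, with points for libraries 1 to 5 and bars for mean ± SD. Sqstm1 is higher in all LKO livers than in any control, Sirt1 and Prkaa2 are lower in all LKO livers than in any control, and Mtfp1 overlaps through control 4.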

How the data were processed

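RNA from 10 livers (5 LKO, 5 control) was sequenced after removal of ribosomal RNA, with a stranded kit and single-end reads on 1 lane, per the labels' protocols. The authors deposited whole-number counts per gene and library, not normalized, with NCBI Gene numbers for 27179 genes. Per the submitters' processing notes, bcl2fastq 2.20, DESeq2 and the build GRCm39 were used. An aligner, a counter, an annotation and a strand setting for the counting are named in none of the sources used here, so reads of overlapping genes and pseudogenes may be split in ways that cannot be checked.

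Gene numbers were paired with symbols through RefSeq's GRCm38.p6 table (25275 genes matched, Phb1 listed there as Phb), and genes without a symbol (0.693% of counts) were tested too. All 10 columns were matched by name. Counts were filtered with filterByExpr, TMM-scaled and tested in R 4.3.3 with edgeR 4.0.16 (quasi-likelihood, genotype as the only term, two-sided), adjusted over 15226 genes. TMM factors ran from 0.832 (control 1) to 1.286 (LKO 3), and the common biological coefficient of variation was 0.242. Intervals of fold changes come from the fitted value and its F statistic. No library pair of a group agreed within sampling noise (lowest chi-square per degree of freedom 32.1). The labels name separate samples and not how the mice were housed or littered, so p-values cover only the spread between these 10 libraries. Ratios are of counts with 0.5 added, not per length. CPM per kilobase used GENCODE M21 exon lengths on GRCm38 and is approximate. Promoter windows (250 bases before and 50 after a start) are RefSeq GRCm38.p6. Proteins were not analysed here.

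The members and lists were chosen with earlier results of these data known, so no count over them is independent support. Named genes are the members, Lpcat3 and the 3 genes of each wider list with the smallest p. Within each class, the genes with the smallest p were given library by library. Others given library by library, such as Mfn2, Pink1, Bnip3, Clpx and Phb2, were chosen after their values were seen. Alternatives were other scalings and filters, DESeq2 1.42.0, limma 3.58.1 voom with quality weights, a robust fit, the title code as a covariate, a block for the replicate number, and fits without single libraries. Figures were drawn with matplotlib 3.10.9.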

Additional observations from a re-analysis of the deposited data

Results flagged for a closer look

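Among 112 groups of 5 values examined (members, ratios and named pathway genes), 15 had 1 library far from the others of its group, by Dixon's test at the 95% level, which chance does in about 1 in 20 groups. Members are not independent, so 1 library can mark several genes.

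LKO 3 was marked low for Fis1 (17.3 CPM, next lowest LKO 22.8 CPM), Pink1 (87.6 CPM, next 139 CPM) and Oma1 (11.8 CPM, next 13.6 CPM). It was also low for the pathway genes Phb1 (63.0 CPM, next 92.2 CPM) and Lonp2 (216 CPM, next 346 CPM), and high for the Mff to Fis1 count ratio (1.09, next 0.789). LKO 4 was marked high for Hspd1 (488 CPM, next 391 CPM) and Lonp1 (165 CPM, next 150.2 CPM).

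Control 4 was marked low for Opa1 (108 CPM, next lowest control 124 CPM), Bnip3 (106 CPM, next 168 CPM), Hspd1 (281 CPM, next 369 CPM), Dnaja3 (61.2 CPM, next 83.3 CPM) and Mtfp1 (8.16 CPM, next 12.7 CPM). Control 2 had a low Hspd1 to Hspe1 ratio (3.64, next 4.03) and control 3 a high Yme1l1 to Oma1 ratio (8.86, next 7.80).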

How the results depend on the processing

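The fit with the title code is left out of the counts in this paragraph, since its genotype term rests on few libraries. With 31 members, the number of members called could move little, so it does not show whether they were stable. The number of genes called moved with the processing. It was 10 in edgeR with TMM, 31 with no filter, 20 with a filter of 1 CPM in 5 libraries, 1186 in DESeq2, 2460 in voom, and 2 to 2296 when 1 library was left out, the highest without control 4. Members called were 0 in edgeR (0.0657% of all genes), 1 in DESeq2 (7.95%) and 1 in voom (16.2%). When 1 library was left out they were 0 to 1, with 1 without control 4 (15.0% of all genes). Members with an unadjusted p under 0.05 were 3 in edgeR, 9 with total counts (26.6% of all genes), 1 with no filter (15.9%), 6 in voom (33.2%) and 1 to 5 when 1 library was left out. They were 5 without control 4 (33.1% of all genes), and 1 without LKO 5 (16.7%), control 2 (16.8%), control 3 (14.9%) or control 5 (17.8%). The causes were not tested.

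Total-count scaling, under which the median of all genes was 0.235, gave class medians of 0.000 for fusion, 0.118 for fission, 0.209 for mitophagy, 0.002 for biogenesis, 0.325 for chaperones and 0.152 for proteases. It reversed 15 members and Rhot2: Mfn2 0.097, Opa1 0.000, Dnm1l 0.118, Fis1 0.220, Bnip3 0.125, Bnip3l 0.175, Bcl2l13 0.136, Ppargc1a 0.046, Esrra 0.002, Dnaja3 0.103, Clpp 0.106, Yme1l1 0.101, Afg3l2 0.152, Oma1 0.121, Phb2 0.134 and Rhot2 0.047. Relative to that median, Mfn1 was -0.31 and Opa1 -0.23. Upper quartile scaling reversed Fis1 (0.008), and voom Fis1 (0.000) and Mff (-0.019). With the title code in the model, the genotype term rests on the A54 libraries, 2 LKO and 1 control. Only effect sizes are given for that fit, since it has 1 control to set against LKO livers of the same code. They do not show whether the genotype differences hold with the code modelled. Lpcat3 was -1.99 in that fit, beside -1.79 without the code. Mfn1 was -0.26, Opa1 -0.12 and Lonp1 0.02. The title code reversed Map1lc3b (-0.139), Trap1 (-0.006), Htra2 (-0.448), Phb2 (0.024) and Grpel2 (-0.037), and within A54 the Spg7 to Afg3l2 log2 difference was 0.292. Leaving out 1 library gave -0.085 to 0.053 for Fis1, -0.024 to 0.041 for Mff, -0.067 to 0.129 for Pink1 and -0.020 to 0.13 for Trap1. For the log2 ratio differences it gave -0.135 to 0.013 for Mief2/Mief1, -0.085 to 0.082 for Mff/Fis1, -0.158 to 0.066 for Bnip3/Bnip3l and -0.067 to 0.018 for Yme1l1/Oma1. Mfn1 was -0.344 to -0.277 without single libraries and -0.073 with total counts.

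With the replicate number as a block, 2 genes and 0 members were called, Mfn1 had an adjusted p of 0.166 and Pink1 turned to -0.005. The deviations of same-numbered libraries from their group means had correlations of both signs (0.419, 0.208, -0.234, -0.399 and -0.0183). The labels pair no mice, and these few values cannot settle whether the numbers do.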
